A study of Homo sapiens with 9 samples.

Results

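The ADAM and ADAMTS families were taken as the gene symbols formed of ADAM, ADAMTS or ADAMTSL and a number, which gave 44 of the 27730 symbols in the count table. They comprised 20 ADAM genes, 19 ADAMTS genes and 5 ADAMTSL genes. The 9 RNA libraries, 3 per group, came from the HUES9 line of human embryonic stem cells. The first group was differentiated to day 13 with 10 µM AA147, which the labels call an ATF6 activator (ATF6 switches on genes when unfolded protein builds up in the endoplasmic reticulum). The second was differentiated to day 13 with 10 µM RP22, its inactive analogue per the labels, and the third was untreated and collected on day 1. The labels name no engineered allele, and all cells came from stocks kept on mitotically inactivated mouse embryonic fibroblasts. Differentiation ran through embryoid bodies after a pretreatment with a Stemolecule product that the labels do not name further, and then on Matrigel. Solvent-only libraries were not analysed here. A single cell line was used, reads from the mouse feeder cells cannot be told apart in the deposited tables, and the day 13 cultures are mixtures of cell types.

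ADAM proteins are membrane-anchored and carry a metalloprotease domain and a disintegrin domain. Those with an intact protease site act as sheddases, which cut the outer part of other membrane proteins loose, and those without one act in adhesion and as receptors. ADAMTS proteases are secreted, bind the extracellular matrix through thrombospondin repeats, and cut proteoglycans, procollagens and other matrix proteins. ADAMTSL proteins share the thrombospondin repeats but lack a protease domain, so the family name "proteases" does not describe them. Both kinds of protease are made as inactive precursors that furin-type convertases cut in the secretory pathway.

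Library totals ranged from 9223027 to 10118258 reads, and 18228 symbols were detected. Markers of pluripotent cells summed to 126 to 159 CPM (a gene's count relative to its library's total, normalised by the trimmed mean of M-values over all 9 libraries) with AA147, to 397 to 683 CPM with RP22 and to 6300 to 7126 CPM at day 1, so the day 1 libraries carried the markers of the cell type on their label. Replicate 1 stood apart in each group. Among RP22 libraries a chi-square of gene counts, divided by its degrees of freedom, gave 28 and 26.9 between replicate 1 and the others and 2.39 between replicates 2 and 3. Scaling also matters for everything that follows: for AA147 against RP22 the all-gene median on the log2 scale was -0.49 with library totals alone instead of -0.03, so changes smaller than that shift depend on the scaling. Changes are reported relative to the trimmed-mean scaling, and calls of members that library totals reversed or ended are named beside their results.

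Of the 44 members, 41 had at least 1 read and ADAM2, ADAM7 and ADAM30 had none. A total of 36 members passed the filter on low counts in at least 1 comparison, and ADAM18, ADAM20, ADAM21, ADAM29 and ADAM32 had reads but passed in none. These 8 untested members are ADAMs of the testis and epididymis, and none of them had more than 32 reads over the 9 libraries. ADAM20 and ADAM21 are closely similar neighbours whose reads may be divided between them, so their counts are uncertain. Markers of male germ cells summed to 1.51 to 2.35 CPM with AA147, 1.92 to 2.28 CPM with RP22 and 5.84 to 10.5 CPM at day 1.

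Per unit of gene length, the membrane ADAMs made up most of the family's RNA in every library. Their summed level was 521 to 542 RPKM (reads divided by gene length and by library total) with AA147, 304 to 328 RPKM with RP22 and 88.2 to 103 RPKM at day 1, and the 3 groups did not overlap. The secreted ADAMTS genes summed to 181 to 216 RPKM with AA147, 146 to 222 RPKM with RP22 and 28.2 to 36.5 RPKM at day 1. For the ADAMTS class the AA147 and RP22 libraries overlapped, since RP22 replicate 1 held the highest sum and RP22 replicates 2 and 3 the lowest of the 6 libraries. The ADAM class therefore took 68.4 to 72.0% of the family's summed RPKM with AA147, 56.3 to 64.3% with RP22 and 72.5 to 74.4% at day 1. RPKM is scaled to library totals alone. The trimmed-mean factors applied to these totals for CPM were 0.786 to 0.82 with AA147 and 1.11 to 1.18 with RP22. The overlap of the ADAMTS sums thus depends on the scaling, whereas shares within a library do not. In bulk RNA, fewer cells of a type and less RNA per cell cannot be told apart, here and in all that follows.

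**Figure D1:**
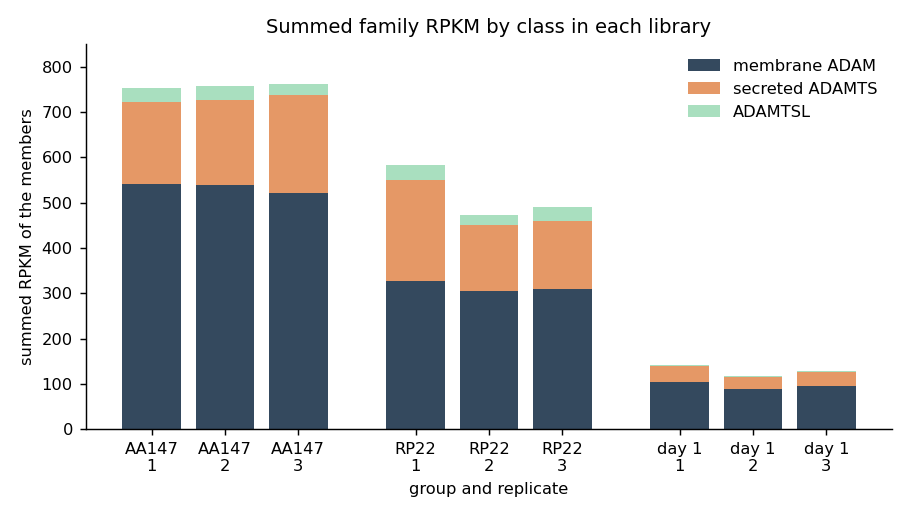
Summed level of the ADAM, ADAMTS and ADAMTSL classes in RPKM, as 1 stacked bar per library, with AA147 left of RP22 and day 1 at the right. The ADAM sums at the bottom of the bars with AA147 (521 to 542 RPKM) lie above those with RP22 (304 to 328 RPKM). The ADAMTS sums of these groups overlap at this scaling to library totals.

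A few ADAMs carried this class. With AA147, ADAM10 averaged 174 ± 10.2 RPKM, ADAM19 163 ± 11.3 RPKM and ADAM9 151 ± 8.88 RPKM (SD, n = 3), and these neighbours in the order overlapped between libraries, while ADAM9 lay clear of the next gene, ADAMTS9, at 45.5 ± 11.1 RPKM. With RP22 the order was ADAM10 (103 ± 3.93 RPKM), ADAM9 (64.9 ± 7.51 RPKM) and ADAM19 (42.5 ± 0.554 RPKM), the first 2 each clear of the next and ADAM19 overlapping ADAMTS9 (35.4 ± 25.6 RPKM). At day 1 ADAM10 led at 44.1 ± 5.27 RPKM, followed by ADAM17 (15.7 ± 0.581 RPKM) and ADAM15 (10.5 ± 0.864 RPKM), and ADAM19 averaged 2.96 ± 0.816 RPKM. ADAM9, ADAM10 and ADAM19 together held 63.0 to 65.7% of the family's RPKM with AA147, 38.4 to 42.5% with RP22 and 42.2 to 42.9% at day 1. ADAM11, ADAM22 and ADAM23, the adhesion members without a working protease site, held 0.0987 to 0.192% with AA147, 5.07 to 8.88% with RP22 and 9.03 to 9.89% at day 1.

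The comparison of AA147 with RP22 asks how the compound called active differs from its inactive analogue at the same dose and day. The sheddases ADAM9, ADAM10 and ADAM19 were higher with AA147 by 2.31-fold to 5.17-fold, and the adhesion members ADAM11, ADAM22 and ADAM23 were lower by 5.75-fold to 161-fold. Of all 9 ADAMs with a working protease site, however, 4 were higher, 1 was lower and 4 did not pass. Their median log2 fold change was -0.01, and with library totals alone 3 of them were higher and 4 lower. Among secreted members, ADAMTS6, ADAMTS12 and ADAMTS18 were higher, and ADAMTS4, ADAMTS8, ADAMTS19 and ADAMTS20 were lower. Of the 36 members tested, 13 were higher and 13 lower at an adjusted p under 0.05 (edgeR quasi-likelihood test, Benjamini-Hochberg over all genes tested, n = 3 per group). That is 72.2% of the members tested, beside 62.0% of all 14293 genes tested, with 29.8% of all genes higher and 32.2% lower. Calls of at least 2-fold made up 52.8% of the members tested and 26.5% of all genes, and the median absolute log2 fold change was 1.52 over the members and 0.50 over all genes. The 3 AA147 libraries all lay above or all lay below the 3 RP22 libraries for 29 of the 36 members, and for 70.5% of all genes. With library totals alone 7 members were higher and 19 lower, and of all calls 18.2% instead of 48.1% were upward.

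**Figure D2:**
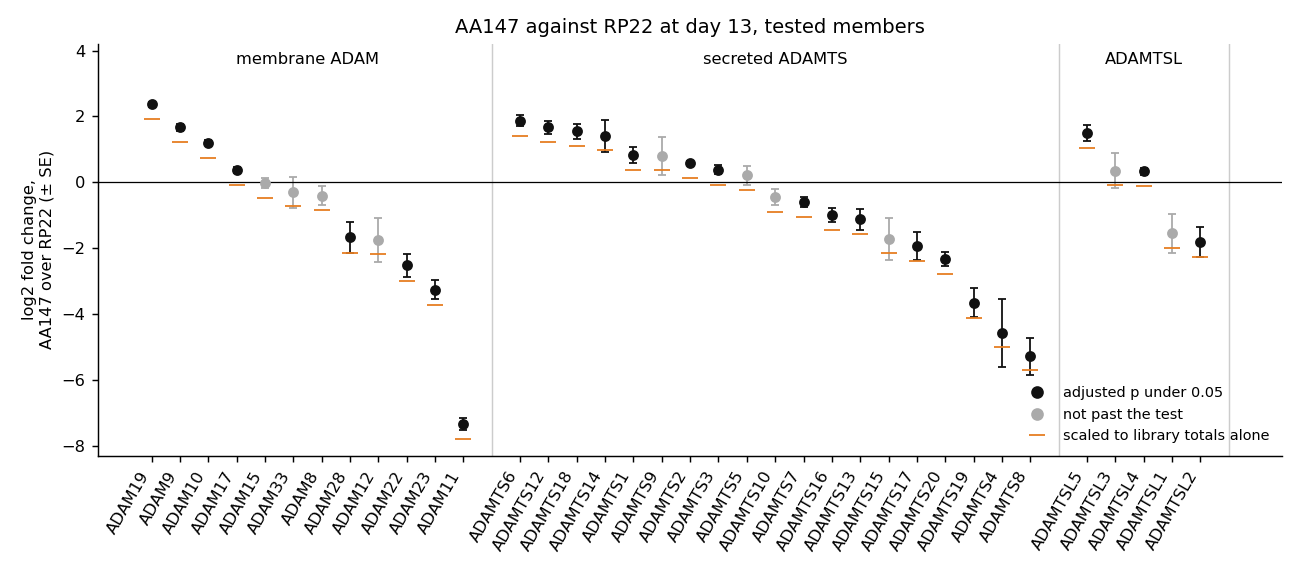
Log2 fold change of AA147 against RP22 for the 36 tested members, grouped by class, with bars of 1 SE; black points passed an adjusted p under 0.05, grey points did not, and orange dashes give the value with library totals alone. ADAM19 (2.37) is the highest and ADAM11 (-7.33) the lowest of the points.

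Membrane and secreted members moved in both directions. Of the 12 ADAMs tested, 4 were higher and 4 lower, with a median log2 fold change of -0.35. Of the 19 ADAMTS genes, all tested, 7 were higher and 8 lower, with a median of -0.45, and of the 5 ADAMTSL genes 2 were higher and 1 lower, with a median of 0.33. The median over all genes was -0.03. No test between the classes was made.

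The sheddases ADAM10, ADAM9 and ADAM19 rose in every AA147 library relative to RP22, and ADAM17 less so. ADAM10, which starts Notch signalling and cuts cadherins, had 802, 939 and 879 CPM with AA147, against 386, 338 and 349 CPM with RP22 and 184, 145 and 163 CPM at day 1. Its log2 fold change was 1.21 ± 0.0850 (SE, adjusted p = 2.2e-05), and the 3 groups did not overlap. ADAM9, a broad sheddase that also binds integrins, had 751, 838 and 743 CPM with AA147, against 272, 209 and 213 CPM with RP22 and 29.9, 33.5 and 31.4 CPM at day 1. That gave 1.67 ± 0.114 on the log2 scale (SE, adjusted p = 2e-05), again with every AA147 library above every RP22 library. ADAM19, the meltrin that cuts neuregulins and acts in heart development in mice, had 1033, 955 and 1011 CPM with AA147, against 194, 177 and 178 CPM with RP22 and 17.8, 10.7 and 15.7 CPM at day 1. It was the member with the largest rise, 2.37 ± 0.0792 on the log2 scale (SE, adjusted p = 1.7e-06). ADAM17, which releases TNF and ligands of the EGF receptor, had 92.6, 109 and 99.9 CPM with AA147, against 67.4, 77.3 and 75.4 CPM with RP22 and 53.5, 52.0 and 49.6 CPM at day 1. Its rise with AA147 was small (0.37 ± 0.0844, SE, adjusted p = 0.0059), and with library totals alone its direction turned, to -0.09.

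The promoter of ADAM19, the ADAM that rose most, is shown with its CG pairs in capitals (RefSeq, GRCh38.p14, chr5:157575726-157576025, minus strand, 5′ to 3′). This window, 250 bases before to 50 after the start, holds 26 CG pairs. The median was 14 over the 27305 promoters of the same length and 29 over the 29 member promoters among them.
ADAM19: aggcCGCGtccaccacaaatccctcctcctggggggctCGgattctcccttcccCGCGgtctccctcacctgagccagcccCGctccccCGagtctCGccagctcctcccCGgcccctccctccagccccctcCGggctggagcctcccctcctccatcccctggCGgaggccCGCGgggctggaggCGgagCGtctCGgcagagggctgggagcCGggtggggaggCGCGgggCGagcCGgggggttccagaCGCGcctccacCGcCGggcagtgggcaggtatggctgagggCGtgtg

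Other ADAMs with a working protease site were lower with AA147 or did not pass. ADAM28, known from lymphocytes, had 0.656, 2.35 and 0.882 CPM with AA147, against 2.52, 4.55 and 4.51 CPM with RP22, and 0.0930, 0.0973 and 0 CPM at day 1, which rested on 29, 131 and 2 reads. It changed by -1.67 ± 0.481 on the log2 scale (SE, adjusted p = 0.017). The call was lost without AA147 replicate 3 (adjusted p = 0.068), RP22 replicate 2 (0.059) or RP22 replicate 3 (0.059), and the value was -2.37 without AA147 replicate 2. ADAM12, a meltrin of muscle and mesenchyme, had 47.3, 15.2 and 17.4 CPM with AA147 and 145, 53.9 and 56.6 CPM with RP22. These libraries did not overlap, yet the difference missed the threshold (-1.75 ± 0.656, SE, adjusted p = 0.068), but it passed with DESeq2 (adjusted p = 0.021), with library totals alone (0.029), with all 9 libraries in one fit (0.03), without AA147 replicate 1 (-2.46, 0.032) and without replicate 1 of both groups (-1.84). ADAM15, found at endothelial and epithelial contacts, differed by -0.01 with a 95% interval of -0.35 to 0.33, and passed as lower with library totals alone (-0.47, adjusted p = 0.027). ADAM33, an asthma-linked gene of mesenchyme, differed by -0.30 (-1.44 to 0.84), and ADAM8, a myeloid sheddase, by -0.41 (-1.09 to 0.28), or by -0.79 without AA147 replicate 1 (adjusted p = 0.019) and -0.85 with library totals alone (0.031).

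The 3 adhesion ADAMs fell further than any other ADAM tested. ADAM11, a membrane protein of neurons, had 0.918, 0.552 and 0.882 CPM with AA147, against 105, 137 and 125 CPM with RP22 and 9.48, 7.59 and 8.16 CPM at day 1. It was 161-fold lower with AA147 than with RP22 (log2 fold change -7.33 ± 0.189, SE, adjusted p = 1.1e-06). ADAM23, a brain adhesion protein that binds LGI1, had 5.64, 3.31 and 2.65 CPM with AA147, against 26.9, 37.7 and 40.4 CPM with RP22 and 48.1, 35.9 and 38.8 CPM at day 1, a log2 fold change of -3.25 ± 0.290 (SE, adjusted p = 9.6e-05). ADAM22, the synaptic receptor of LGI1, had 4.72, 2.48 and 2.27 CPM with AA147, against 11.5, 20.8 and 19.5 CPM with RP22 and 25.1, 18.7 and 20.7 CPM at day 1. It changed by -2.52 ± 0.353 (SE, adjusted p = 0.00063), or by -3.16 without replicate 1 of both groups. In all 3 genes the AA147 libraries lay below both other groups, and for ADAM22 and ADAM23 the RP22 and day 1 libraries did not differ past the threshold. LGI1, LGI2 and LGI4, which code for ligands of these ADAMs and were picked out after their values were seen, were lower too, by -1.31, -3.35 and -4.84 on the log2 scale. Markers of neural cells moved with them: 9 of 10 were lower and 1 higher, and their summed level was 471 to 524 CPM with AA147, 1093 to 1466 CPM with RP22 and 291 to 435 CPM at day 1. TUBB3, a tubulin and the marker that was higher, made up 416 to 462 CPM of the sum with AA147. TUBB3 was then left out, a choice made after its values were seen. The other 9 markers summed to 54.8 to 62.5 CPM with AA147, 833 to 1098 CPM with RP22 and 147 to 275 CPM at day 1. AA147 was the lowest group in that sum, but OTX2 alone held 82.0 to 151 CPM of it at day 1. Of the whole list, 8 markers were tested for AA147 against day 1, with 4 lower and 1 higher. Markers of neural crest and Schwann precursors summed to 89.6 to 130 CPM with AA147, 433 to 881 CPM with RP22 and 216 to 288 CPM at day 1, with FOXD3 at 0 with AA147. The part of either marker list in these changes was not tested.

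**Figure D3:**
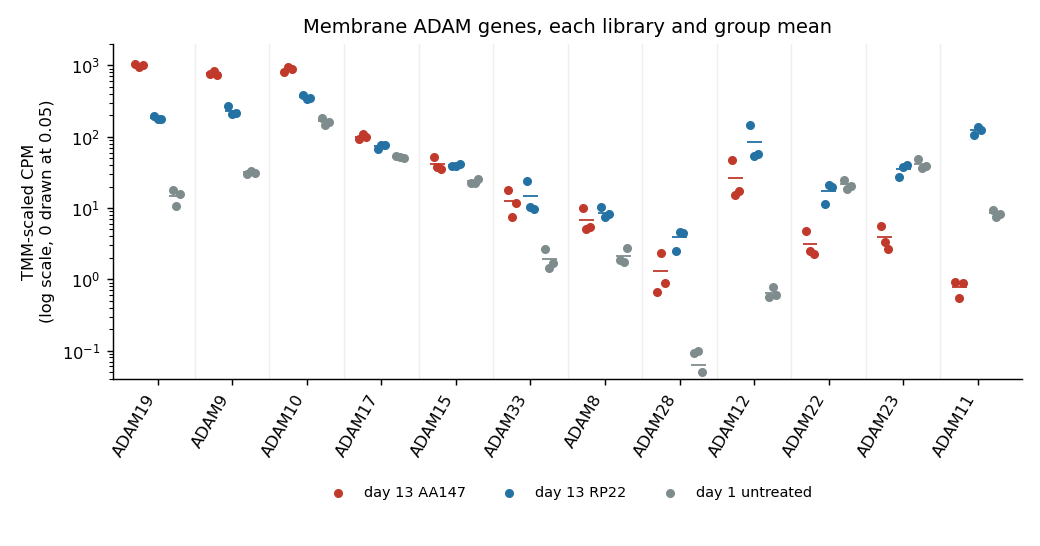
CPM of the ADAM genes tested for AA147 against RP22, on a log axis, with AA147 left of RP22 and day 1 at the right. Points are libraries, lines are group means, and 0 is drawn at 0.05. The AA147 points of ADAM11, ADAM22 and ADAM23 sit below both other groups, and those of ADAM9, ADAM10 and ADAM19 above them.

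Of the 7 ADAMTS genes that cleave the proteoglycans aggrecan and versican, 1 was higher and 3 lower. ADAMTS1, which acts on versican, had 168, 213 and 182 CPM with AA147, against 143, 80.6 and 79.3 CPM with RP22 and 4.0, 4.77 and 4.88 CPM at day 1. Its rise of 0.82 ± 0.244 (SE, adjusted p = 0.027) was not firm, since it missed the threshold when any one of AA147 replicates 1 to 3 or RP22 replicates 2 and 3 was left out (adjusted p 0.054 to 0.077), and also with library totals alone. ADAMTS20, known from melanoblast migration in mice, had 2.88, 1.93 and 2.65 CPM with AA147, against 13.0, 11.7 and 10.9 CPM with RP22 and 3.53, 2.63 and 3.58 CPM at day 1. Its level with AA147 was near that of day 1 and well below that of RP22 (-2.32 ± 0.213, SE, adjusted p = 7.3e-05). ADAMTS8 had 0.393, 0.138 and 0 CPM with AA147, against 8.97, 5.83 and 6.10 CPM with RP22 and 2.79, 6.13 and 5.97 CPM at day 1. The 3 AA147 libraries held 4 reads in all, and the fitted level was 38.9-fold lower with AA147 (-5.28 ± 0.566, SE, adjusted p = 0.00015), and its value was -6.54 without AA147 replicate 1 and -4.69 without AA147 replicate 3. ADAMTS4, an aggrecanase, had 1.05, 0 and 0 CPM with AA147, against 14.8, 4.92 and 5.10 CPM with RP22 and 4.46, 3.31 and 3.28 CPM at day 1, with AA147 reads in replicate 1 only. The fitted change was -4.58 ± 1.03 (SE, adjusted p = 0.0086). The fitted size was -3.97 without AA147 replicate 3 and -3.85 without RP22 replicate 1, and without AA147 replicate 1 the AA147 group held no read of ADAMTS4.

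ADAMTS5, ADAMTS9 and ADAMTS15 did not pass. ADAMTS9, which cuts versican and serves ciliogenesis, had 349.8, 370 and 548 CPM with AA147, against 434, 123 and 134 CPM with RP22 and 0.744, 0.584 and 0.398 CPM at day 1. RP22 replicate 1 lay 3.37-fold above the mean of RP22 replicates 2 and 3, and without it ADAMTS9 was higher with AA147 by 1.65 (adjusted p = 0.0021), against 0.80 ± 0.572 (SE, adjusted p = 0.28) with it. ADAMTS15 had 33.7, 15.6 and 15.0 CPM with AA147, against 123, 37.0 and 41.4 CPM with RP22, and differed by -1.72 ± 0.647 (SE, adjusted p = 0.068). It passed with DESeq2 (adjusted p = 0.02), with library totals alone (0.027), with all 9 libraries in one fit (0.031) and without replicate 1 of both groups (-1.44). ADAMTS5, the main aggrecanase of mouse cartilage, differed by 0.22 with a 95% interval of -0.44 to 0.88. ADAMTS1 and ADAMTS5 are neighbours in the genome, as are ADAMTS8 and ADAMTS15.

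RP22 replicate 1 was high for several other members. Of 36 members over 1 CPM in the RP22 group, 7 were at least 2-fold higher in replicate 1 than in the mean of replicates 2 and 3, namely ADAM12, ADAM33, ADAMTS4, ADAMTS9, ADAMTS15, ADAMTSL1 and ADAMTSL3, beside 3.20% of all genes. In the AA147 group this held for 4 of 31 members, namely ADAM12, ADAMTS14, ADAMTS15 and ADAMTS19, beside 2.01% of all genes. Markers of mesenchyme and smooth muscle summed to 26724 to 34264 CPM with AA147, to 17072 CPM in RP22 replicate 1, to 4789 and 5157 CPM in RP22 replicates 2 and 3, and to 347 to 366 CPM at day 1. Collagens COL1A1 and COL3A1 made up most of that sum at day 13, and with LUM and POSTN, other matrix genes, they were high in RP22 replicate 1. So were the other mesenchyme markers of the list. THY1 had 85.4, 39.2 and 46.4 CPM, TWIST1 15.2, 8.19 and 8.70 CPM and PDGFRB 110, 69.1 and 64.5 CPM in RP22 replicates 1, 2 and 3. The smooth muscle markers of the list were not: ACTA2 had 74.3, 88.0 and 62.7 CPM, TAGLN 281, 331 and 256 CPM and CNN1 27.0, 34.8 and 26.7 CPM in RP22 replicates 1, 2 and 3. For AA147 against RP22, 5 of the 10 markers of this list were higher and 1 lower, beside 29.8% and 32.2% of all genes. The part of these markers in the members' levels was not tested.

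The 3 procollagen N-proteinases, which trim the amino end of fibrillar procollagens or, for ADAMTS3, activate VEGFC, were all higher with AA147, but with library totals alone none passed and ADAMTS3 turned to -0.07. ADAMTS2 had 82.6, 85.1 and 86.1 CPM with AA147, against 55.1, 49.9 and 54.9 CPM with RP22 and 7.34, 4.47 and 5.97 CPM at day 1, a change of 0.59 ± 0.0693 (SE, adjusted p = 0.00023). ADAMTS3 had 19.1, 25.5 and 20.8 CPM with AA147, against 17.6, 15.7 and 14.2 CPM with RP22 and 7.99, 6.71 and 6.07 CPM at day 1. Its change of 0.38 ± 0.139 (SE, adjusted p = 0.043) missed the threshold with DESeq2 (adjusted p = 0.082) and without any one of AA147 replicates 2 and 3 and RP22 replicates 2 and 3 (adjusted p 0.068 to 0.14). ADAMTS14 had 8.65, 2.90 and 4.54 CPM with AA147, against 2.80, 1.18 and 1.76 CPM with RP22 and 5.21, 1.75 and 2.98 CPM at day 1, with AA147 replicate 1 the highest of the 9 libraries. The change of 1.41 ± 0.480 (SE, adjusted p = 0.033) was 0.88 without that library (adjusted p = 0.12), and it also missed the threshold without AA147 replicate 3 (0.058), RP22 replicate 2 (0.097) or RP22 replicate 3 (0.092).

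ADAMTS3 was the only one of the 29 members in the promoter table whose promoter holds TGACGTG, the core shared by ATF6 and related factors' sites, searched on both strands. The match lies 216 bases before the start and is in capitals (RefSeq, GRCh38.p14, chr4:72569172-72569471, minus strand, 5′ to 3′). These letters occur in 546 of 27305 promoters (2.00%). The longer endoplasmic reticulum stress element, which is CCAAT, 9 of any base and CCACG, was in none of the 29 members' promoters and in 22 of all promoters (0.0806%). A match or its lack says nothing here of binding.
ADAMTS3: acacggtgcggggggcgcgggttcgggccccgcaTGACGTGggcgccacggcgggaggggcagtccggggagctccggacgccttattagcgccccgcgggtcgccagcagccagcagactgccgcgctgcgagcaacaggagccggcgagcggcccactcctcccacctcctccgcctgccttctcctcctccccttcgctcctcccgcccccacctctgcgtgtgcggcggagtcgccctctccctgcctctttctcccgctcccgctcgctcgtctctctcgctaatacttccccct

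The pair of enzymes that cut COMP, the cartilage oligomeric matrix protein, went in opposite directions. ADAMTS12 had 372, 364 and 275 CPM with AA147, against 127, 92.6 and 80.3 CPM with RP22 and 38.7, 21.3 and 24.0 CPM at day 1, a rise of 1.67 ± 0.197 (SE, adjusted p = 0.00043). ADAMTS7 had 37.4, 27.3 and 27.5 CPM with AA147, against 38.6, 47.0 and 45.4 CPM with RP22 and 26.2, 21.9 and 22.5 CPM at day 1, a fall of -0.59 ± 0.150 (SE, adjusted p = 0.01). The order of the 3 groups thus differed between them, with ADAMTS12 highest with AA147 and ADAMTS7 highest with RP22.

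Of the enzymes tied to fibrillin microfibrils, ADAMTS6, which acts in heart development in mice, had 89.5, 90.9 and 129 CPM with AA147, against 28.5, 23.1 and 28.2 CPM with RP22 and 2.42, 0.778 and 2.19 CPM at day 1. It rose by 1.87 ± 0.163 (SE, adjusted p = 8.1e-05). ADAMTS10, a gene of Weill-Marchesani syndrome, did not pass (-0.45, 95% interval -1.03 to 0.12), except as lower with library totals alone (-0.90, adjusted p = 0.01).

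ADAMTS13, which cuts von Willebrand factor and is made mainly in liver stellate cells and endothelium, had 6.16, 3.17 and 8.44 CPM with AA147, against 13.6, 12.8 and 10.4 CPM with RP22 and 12.7, 8.27 and 9.75 CPM at day 1. It was lower with AA147 by -1.12 ± 0.318 (SE, adjusted p = 0.016). Hepatic and yolk sac markers summed to 0.965 to 6.16 CPM with AA147 (TTR at 0), 110 to 180 CPM with RP22 and 5.30 to 8.95 CPM at day 1. Endothelial markers summed to 7.17 to 24.3 CPM with AA147 (PECAM1 at 0), 92.1 to 189 CPM with RP22 and 42.8 to 61.5 CPM at day 1. The part of either list was not tested.

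Among ADAMTS16 to ADAMTS19, which are less studied, only ADAMTS18 was higher. ADAMTS18, a gene of eye and organ development, had 230.2, 319 and 445 CPM with AA147, against 94.2, 115 and 112 CPM with RP22 and 1.86, 1.07 and 1.69 CPM at day 1. The rise was 1.55 ± 0.238 (SE, adjusted p = 0.0018), and the day 1 libraries lay far below both treated groups. ADAMTS16, linked to gonad and kidney, had 3.41, 3.45 and 4.16 CPM with AA147, against 7.29, 7.47 and 6.10 CPM with RP22 and 18.8, 21.5 and 20.6 CPM at day 1. Its levels ran lowest with AA147, then RP22, then day 1, with -1.0 ± 0.207 (SE, adjusted p = 0.0037) between AA147 and RP22. ADAMTS17, another gene of the Weill-Marchesani spectrum, was lower by -1.94 ± 0.428 (SE, adjusted p = 0.005), from means under 5 CPM in all groups. ADAMTS19, linked to heart valves, had 12.6, 3.17 and 5.29 CPM with AA147, against 79.4, 81.8 and 91.4 CPM with RP22 and 42.3, 24.7 and 31.8 CPM at day 1. Its fall with AA147 against RP22 was -3.65 ± 0.433 (SE, adjusted p = 0.00085), or -4.38 without AA147 replicate 1, the highest of the AA147 libraries.

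The promoter of ADAMTS19 is shown beside that of ADAM19 as one of a member that fell, with CG pairs in capitals (RefSeq, GRCh38.p14, chr5:129460048-129460347, plus strand, 5′ to 3′). It holds 25 CG pairs, beside 26 for ADAM19.
ADAMTS19: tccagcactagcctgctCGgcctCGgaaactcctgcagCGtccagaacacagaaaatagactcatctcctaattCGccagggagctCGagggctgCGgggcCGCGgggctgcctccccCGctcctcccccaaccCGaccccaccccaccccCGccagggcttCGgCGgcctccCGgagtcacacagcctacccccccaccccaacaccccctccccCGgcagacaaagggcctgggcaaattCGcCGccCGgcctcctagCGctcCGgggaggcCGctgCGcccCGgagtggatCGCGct

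**Figure D4:**
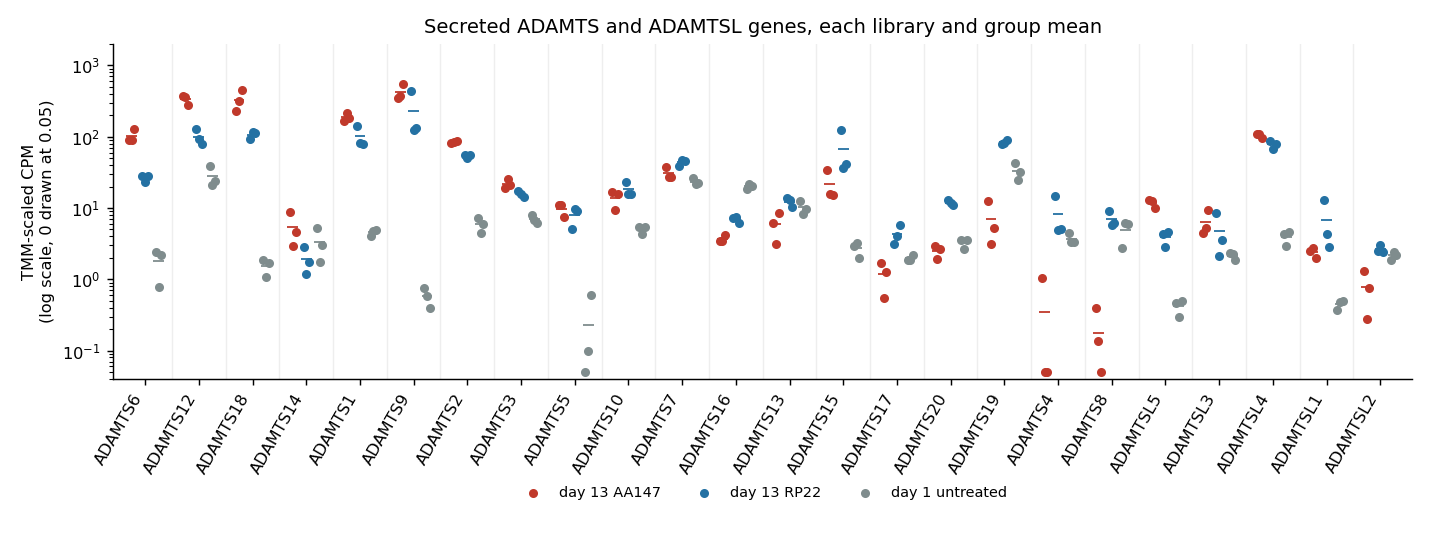
CPM of the ADAMTS and ADAMTSL genes tested for AA147 against RP22, on a log axis, with AA147 left of RP22 and day 1 at the right. Points are libraries, lines are group means, and 0 is drawn at 0.05. ADAMTS4, ADAMTS8, ADAMTS19 and ADAMTS20 are lower with AA147 than with RP22, and ADAMTS6, ADAMTS12 and ADAMTS18 higher.

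The ADAMTSL genes, which code for matrix proteins without protease activity, divided as well. ADAMTSL5, which binds fibrillin, had 12.8, 12.6 and 9.95 CPM with AA147, against 4.30, 2.82 and 4.68 CPM with RP22 and 0.465, 0.292 and 0.497 CPM at day 1, a rise of 1.5 ± 0.238 (SE, adjusted p = 0.00099). ADAMTSL4, a lens zonule protein, had 109, 108 and 94.6 CPM with AA147, against 88.2, 67.2 and 79.2 CPM with RP22 and 4.28, 2.92 and 4.68 CPM at day 1. Its small rise (0.33 ± 0.111, SE, adjusted p = 0.032) turned to -0.12 with library totals alone and missed the threshold when either of AA147 replicates 1 and 2 or of RP22 replicates 2 and 3 was dropped (adjusted p 0.06 to 0.088). ADAMTSL2, the gene of geleophysic dysplasia, was lower by -1.81 ± 0.455 (SE, adjusted p = 0.0092), or by -2.41 without replicate 1 of both groups. ADAMTSL1 (-1.55, 95% interval -2.96 to -0.15) and ADAMTSL3 (0.36, -0.91 to 1.63) did not pass. ADAMTSL1 passed with DESeq2 (adjusted p = 0.016), library totals alone (0.016) and all 9 libraries in one fit (0.029) and without RP22 replicate 3 (-1.91, 0.015), and ADAMTSL3 without RP22 replicate 1 (1.10, adjusted p = 0.036).

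Against day 1, most members were higher at day 13 with either compound. The 2 comparisons share the day 1 libraries, so each member's values are given side by side and not as separate support. With AA147, 23 of the 35 members tested were higher and 8 lower than at day 1, that is 65.7% higher beside 38.7% of all 13761 genes, with 79.1% of all genes called, and the groups did not overlap for 32 of 35 members and 82.3% of all genes. With RP22, 27 of 36 were higher and 1 lower than at day 1, that is 75.0% higher beside 36.6% of all 14558 genes, with 71.9% of all genes called, and the groups did not overlap for 29 of 36 members and 76.9% of all genes. The median log2 fold change of the members was 1.65 with AA147 and 1.86 with RP22, beside -0.04 and 0.02 over all genes. By class, 8 of 11 ADAMs and 11 of 19 ADAMTS genes were higher with AA147, and 10 of 12 ADAMs and 14 of 19 ADAMTS genes with RP22.

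**Figure D5:**
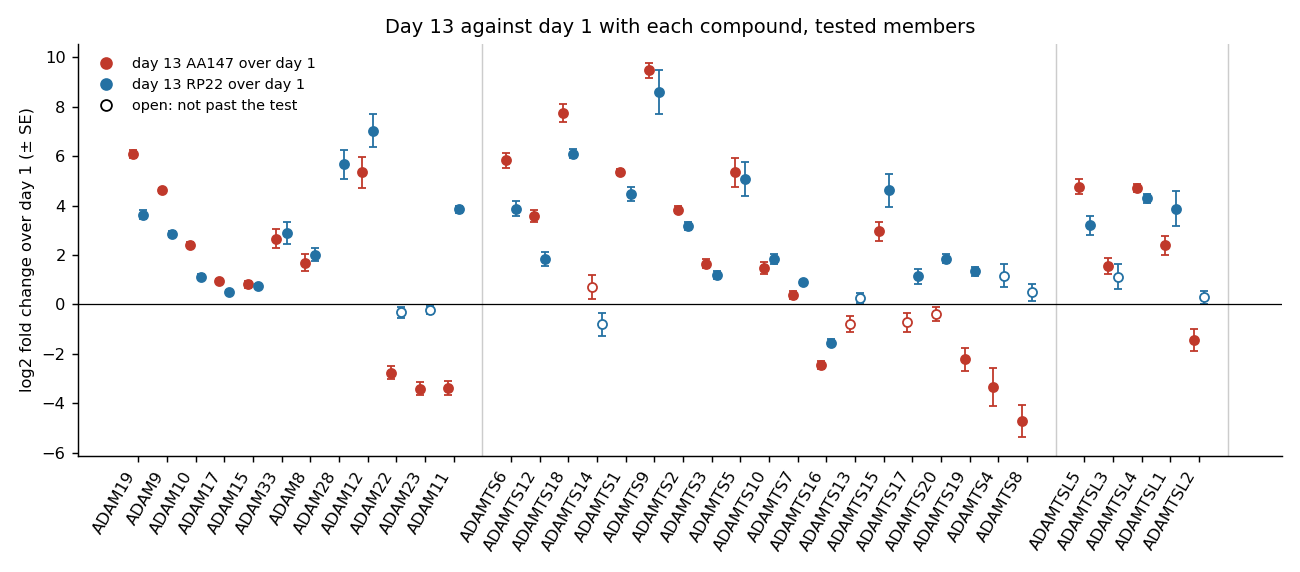
Log2 fold change against day 1 for each member tested, AA147 in red and RP22 in blue, with open points where the adjusted p was not under 0.05. ADAM11 lies at -3.39 with AA147 and 3.86 with RP22, and ADAMTS19 at -2.22 and 1.35.

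A group of 12 members rose from day 1 with both compounds and were higher with AA147 than with RP22, namely ADAM9, ADAM10, ADAM17, ADAM19, ADAMTS1, ADAMTS2, ADAMTS3, ADAMTS6, ADAMTS12, ADAMTS18, ADAMTSL4 and ADAMTSL5. Against day 1, ADAM19 changed by 6.08 with AA147 and 3.63 with RP22. ADAM9 changed by 4.62 with AA147 and 2.87 with RP22, and ADAM10 by 2.41 and 1.12 in the same order. ADAMTS18 changed by 7.73 with AA147 and 6.10 with RP22, and ADAMTS6 by 5.83 and 3.88. Another 9 members rose with both and did not differ past the threshold between the compounds, namely ADAM8, ADAM12, ADAM15, ADAM33, ADAMTS5, ADAMTS9, ADAMTS10, ADAMTS15 and ADAMTSL1.

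ADAM11 and ADAMTS19 were lower than at day 1 with AA147 and higher with RP22. ADAM22, ADAM23, ADAMTS4, ADAMTS8 and ADAMTSL2 were lower than at day 1 with AA147 and did not pass with RP22. For ADAM23 the values against day 1 were -3.40 ± 0.246 with AA147 and -0.23 ± 0.174 with RP22 (log2, SE), and for ADAMTS8 -4.71 ± 0.650 and 0.49 ± 0.332. ADAMTS17 and ADAMTS20 were higher than at day 1 with RP22 and did not pass with AA147, where ADAMTS20 differed by -0.38 (95% interval -1.02 to 0.26). ADAMTS16 was lower than at day 1 with both, by -2.46 with AA147 and -1.55 with RP22. ADAMTS7 was higher with both, by 0.39 with AA147 and 0.89 with RP22, though with library totals alone its AA147 value turned to -0.05, and it missed the threshold without AA147 replicate 1, day 1 replicate 2 or day 1 replicate 3 (adjusted p 0.1 to 0.13). ADAM15 missed it against day 1 with AA147 under library totals alone (0.38, adjusted p = 0.051), and ADAMTSL2 without AA147 replicate 2 or 3 (adjusted p = 0.051 each). ADAM28 had too few reads for a test of AA147 against day 1. Its ratio to day 1 was 19.8 with AA147 (95% counting interval 5.00 to 171) and 60.5 with RP22 (16.4 to 505), from 2 reads at day 1. ADAMTS14 passed in neither. ADAMTS13 did not pass with AA147 (-0.78, adjusted p = 0.051) or with RP22 (0.26), but its AA147 value came past the threshold with DESeq2 (0.042), no count filter (0.044), library totals alone (-1.22, 0.0071), all 9 libraries in one fit (0.035), and without AA147 replicate 3 (0.015) or day 1 replicate 2 (0.042). ADAMTS4 with RP22 (1.15, adjusted p = 0.055) likewise came past it with DESeq2 (0.021), library totals alone (0.035), and without RP22 replicate 2 (0.028), RP22 replicate 3 (0.031) or replicate 1 of both groups (0.60, 0.038). With library totals alone ADAMTS17 (-1.16, 0.023) and ADAMTS20 (-0.81, 0.024) were lower than at day 1 with AA147, and ADAMTS17 also without replicate 1 of both groups (-1.12, 0.041). ADAMTSL3 passed with AA147 (1.56) and not with RP22 (1.12, or 1.48 and adjusted p = 0.015 without RP22 replicate 2, and 1.21 and 0.049 with library totals alone), while the compounds did not differ past the threshold.

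Genes that act with the family were taken from lists of its partners, whose counts for AA147 against RP22 stand beside 29.8% of all genes higher and 32.2% lower. Of 13 sheddase partners and inhibitors tested, 7 were higher and 2 lower, with a median log2 fold change of 0.69, or 7 higher and 3 lower with a median of 0.25 with library totals alone. Among the higher were the inhibitors TIMP2 (0.81) and TIMP3 (1.96), the ADAM10 escort TSPAN14 (0.92) and the ADAM17 regulator RHBDF1 (0.85). The 2 lower were TSPAN15 (-0.97) and TSPAN33 (-3.13), relatives of TSPAN14, whereas their relative TSPAN17 (0.65) was higher. All 4 convertases that activate the precursors were higher, with a median of 0.70, namely FURIN (1.08), PCSK5 (0.59), PCSK6 (0.67) and PCSK7 (0.74), but with library totals alone PCSK5 and PCSK6 no longer passed and the median was 0.25. Of the gamma-secretase subunits, which cut the stubs that sheddases leave, 4 were higher and 1 lower of 6 with a median of 0.41, and with library totals alone 1 was higher and 1 lower with a median of -0.05. Membrane substrates of the sheddases numbered 11 higher and 6 lower of 22, with a median of 0.38, or -0.09 with library totals alone. They included APLP2 (0.91), a relative of the amyloid precursor, and E-cadherin CDH1 (0.91). The amyloid precursor APP (0.40) and the receptor NOTCH2 (0.35) were higher too, but turned to -0.05 and -0.10 with library totals alone. Among the 6 lower were the receptors NOTCH1 (-0.385) and NOTCH3 (-0.99) and the Notch ligand DLL1 (-4.0). Among the integrin and LGI partners, 5 were higher and 4 lower of 11. The higher included ITGB1 (1.67), ITGAV (2.24), ITGA5 (1.34) and ITGB5 (0.47), of which ITGB5 no longer passed with library totals alone (0.02). The lower were the integrin chain ITGA4 (-5.91) and LGI1, LGI2 and LGI4.

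On the matrix side, 7 substrates of ADAMTS proteases were higher and 6 lower of 17, with a median of -0.54. With library totals alone 7 were higher and 7 lower, with a median of -0.996. Without replicate 1 of both groups 8 were higher and 8 lower, with a median of 0.24. The most abundant past the test were fibronectin FN1 (2.25) and the collagen chains COL1A1 (1.97), COL1A2 (1.77) and COL5A1 (2.11), all higher. Other substrates had lower means with AA147 than with RP22. The proteoglycan genes ACAN and NCAN averaged 0.175 and 0 CPM with AA147, against 25.4 and 9.35 CPM with RP22. The collagen chain COL2A1 averaged 106 CPM with AA147 and 324 CPM with RP22. Of the genes that activate, inhibit or take up ADAMTS proteases, 5 were higher and 1 lower of 7, with a median of 1.29, among them FBLN1 (1.87), the uptake receptor LRP1 (1.13) and BMP1 (1.89), a procollagen C-proteinase. Of the 4 enzymes measured that add sugars to thrombospondin repeats, 3 were higher and 1 lower, with a median of 0.58, namely DPY19L1 (0.88), DPY19L3 (-0.46), POFUT2 (0.46) and B3GALTL (0.71). With library totals alone POFUT2 and B3GALTL no longer passed, which left 1 higher and 1 lower with a median of 0.13. The all-gene median for these lists was -0.03. Against day 1, sheddase substrates were higher for 19 of 21 tested with AA147 and 18 of 22 with RP22, and matrix substrates for 11 of 15 with AA147 and 15 of 17 with RP22, beside 38.7% of all genes with AA147 and 36.6% with RP22.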

How the data were processed

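Expected counts, which are estimated reads per gene before any scaling, and RPKM, which divides reads by gene length and library total, were deposited by the authors as 2 tables with 1 column per library. The submitters' processing notes name GRCh37.p13 as the build. The aligner and counter names are not given in the sources used. In the count table the floor value of 0.05 was read as 0, fractions were rounded, and 42 symbols on more than 1 row were summed. RPKM was used for levels of genes side by side and for sums and counts of members per library, and all tests used the counts. The ratio of count to RPKM, which gives the length used, varied between libraries for ADAMTS2 (by 34.6%), ADAMTSL4 (23.9%), ADAM19 (15.5%) and ADAMTS10 (10.6%), so the RPKM of these 4 genes is less certain.

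Each of the 3 comparisons used only the 6 libraries of its groups and no other term, in R 4.3.3 with edgeR 4.0.16 (filterByExpr, TMM scaling, robust quasi-likelihood F test), and p-values were adjusted by Benjamini-Hochberg over all genes tested, with a threshold of 0.05. The test was chosen for raw counts and was applied to the rounded expected counts. SE is the absolute log2 fold change divided by the square root of F, and intervals of fold changes are 95% intervals from it. Counting intervals cover counting error only. DESeq2 1.42.0 and other scalings, filters and sets of libraries were alternatives. The procedure was tested on simulated data in which few genes changed, balanced between higher and lower. That test therefore could not check the choice of scaling.

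Groups come from the labels, which call the replicates independent experiments. Replicate numbers were not treated as pairs. The members and gene lists were chosen with earlier results of these data known. Every member past the filter is named. Members past the AA147 and RP22 test with at least 5 CPM in the higher group are described library by library, with ADAM10 and ADAM17. Of each list up to 4 genes past the test are named, those with the most reads. The LGI genes, ITGA4, ACAN, NCAN, COL2A1, TSPAN15, TSPAN17, TSPAN33, NOTCH1, NOTCH3 and DLL1 were added after their values were seen. The neural marker sum without TUBB3 was also taken after the TUBB3 values were seen. All 44 members matched RefSeq symbols, and 29 had a promoter in the RefSeq table. No coordinates on the files' build are given.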

Additional observations from a re-analysis of the deposited data

Results flagged for a closer look

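ADAM11 and ADAMTS19 moved in opposite directions from day 1 with the 2 compounds. ADAM11 was lower than at day 1 with AA147 (log2 fold change -3.39 ± 0.285, SE) and higher with RP22 (3.86 ± 0.139), and the direct comparison of AA147 with RP22 gave -7.33 (edgeR adjusted p = 1.1e-06, lower in 3 of 3 libraries). ADAMTS19 was lower than at day 1 with AA147 (-2.22 ± 0.468) and higher with RP22 (1.35 ± 0.183), and the direct comparison gave -3.65 (edgeR adjusted p = 0.00085, lower in 3 of 3 libraries). Both comparisons with day 1 use the same day 1 libraries.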

How the results depend on the processing

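The 6 alternatives that kept all libraries gave 642 values of single members. Of these, 599 kept their direction and their side of the threshold, 29 came past it and 6 fell short of it. Another 4 were calls that turned in direction, and 4 changed sign without passing in either fit. With the fits that left libraries out counted too, each comparison had 13 alternatives. For AA147 against RP22 the call held under all of these for 19 of 26 members, for RP22 against day 1 for 28 of 28, and for AA147 against day 1 for 28 of 31. The 4 calls that turned did so with library totals alone: ADAM17 (-0.09), ADAMTS3 (-0.07) and ADAMTSL4 (-0.12) for AA147 against RP22, and ADAMTS7 (-0.05) for AA147 against day 1. That scaling moved the median of all genes down, which alone turns small rises. With it, AA147 against RP22 gave 7 members higher, 7 ADAMs lower, 3 ADAMTS genes higher, and 1 ADAMTSL gene higher and 2 lower, and AA147 against day 1 gave 7 ADAMTS genes lower. DESeq2 and all 9 libraries in one fit each called 2 ADAMTSL genes lower for AA147 against RP22, and the cause was not tested.

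Replicate numbers were not taken as pairs in the main test. Deviations of same-numbered AA147 and RP22 libraries correlated at 0.191, 0.153 and 0.063. For AA147 replicates 1 and 2 the same-numbered RP22 library gave the highest value, while AA147 replicate 3 correlated best with RP22 replicate 2 (0.109). Whether same-numbered day 13 libraries share a source was not tested. With replicate number as a block, 2 ADAMTSL genes were lower for AA147 against RP22, and 2 members, both ADAMTS genes, were lower for RP22 against day 1. The calls it changed were ADAM12 (-1.79, adjusted p = 2.4e-05), ADAMTS15 (-1.63, 0.00011), ADAMTS10 (-0.47, just under 0.05) and ADAMTSL1 (-1.34, 0.029), which passed, and ADAMTS3 (0.38, 0.061), which did not, for AA147 against RP22; ADAMTS4 (1.01, 0.024) and ADAMTS14 (-0.76, 0.047), which passed, for RP22 against day 1; and ADAMTS13 (-0.84, 0.016) and ADAMTS14 (0.69, 0.039), which passed, for AA147 against day 1.

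Leaving out 1 library at a time or replicate 1 of both groups, AA147 against RP22 gave 9 to 15 members higher and 12 to 16 lower, 4 to 8 ADAMTS genes higher (4 without AA147 replicate 3, RP22 replicate 2 or RP22 replicate 3), and 1 to 3 ADAMTSL genes higher and 1 to 2 lower. AA147 against day 1 gave 0 to 1 ADAMTSL genes lower (0 without AA147 replicate 2 or 3). Without replicate 1 in both groups, a choice made after seeing the data, no call was lost for AA147 against RP22, ADAMTS19, ADAMTS8 and ADAMTSL2 stood at -4.42, -6.32 and -2.41, and ADAM8, ADAM12, ADAMTS9, ADAMTS15 and ADAMTSL3 came past the threshold.

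Members under about 5 CPM, such as ADAM28, ADAMTS4, ADAMTS8, ADAMTS17 and ADAMTSL2 with AA147, rest on few reads, so their fold changes are less certain than those of ADAM9, ADAM10 and ADAM19. Feeder reads and solvent effects could not be measured.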

Other observations

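The median member promoter held more CG pairs than the median of all promoters. The 29 member promoters held a median of 29 CG pairs in 300 bases and those of all genes a median of 14 (RefSeq, GRCh38.p14). Members higher with AA147 than with RP22 had a median of 35 (n = 11, range 9 to 47), members lower 27.5 (n = 8, range 7 to 41), members tested but not called 38 (n = 6, range 8 to 48) and members with too few reads for a test 2.5 (n = 4, range 0 to 18). The ranges of the higher and the lower members overlapped. No median over the promoters of tested genes alone was taken, so a trait particular to the family is not shown.

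With at least 1 read stood 37 to 39 members with AA147, 38 to 41 with RP22 and 38 to 39 at day 1, so these counts overlapped. At 1 RPKM or more stood 20 to 23 members with AA147, 31 to 32 with RP22 and 17 to 19 at day 1, and the summed RPKM was lower with RP22 than with AA147. All genes were not counted at 1 RPKM. With a mean of replicates 2 and 3 of at least 1 CPM stood 31 members with AA147, 36 with RP22 and 30 at day 1. Over all genes these counts were 13072, 14453 and 13346, so more genes of any kind reached that level with RP22. The antisense transcript ADAMTS9-AS2 had 0 reads in all 9 libraries.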
